A study of Homo sapiens with 6 samples.

Results

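ABCB1, the gene of the drug efflux pump P-glycoprotein, and 9 genes that lie beside it on chromosome 7 were examined by RNAseq in a prostate cancer cell line and its taxane-resistant derivative. The genes were chosen by name and position, as rows of the deposited tables whose gene symbol was DMTF1, TMEM243, CROT, ABCB4, ABCB1, RUNDC3B, SLC25A40, DBF4, ADAM22 or SRI, and all 10 were found among 58735 genes. C4-2B is an established castration resistant human prostate cancer line. RC4-2B is a subclone of C4-2B made by repeated 72 h pulses of cabazitaxel (CBZ), a taxane that stabilizes microtubules, at concentrations raised from 0.1 nM to 20 nM over 4 months. Both lines were grown in RPMI-1640 with 10% serum and no drug is named for the RNA samples. The methods name both charcoal-stripped and fetal bovine serum, and the sample labels name the latter. Each line gave 3 libraries labelled as biological replicates. They come from 1 parental line and 1 selected line, so the spread between libraries is that of cultures of a line and not of separate selections.

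P-glycoprotein is an ATP-driven pump of the plasma membrane that removes many unrelated drugs from the cell, taxanes among them. It is found in gut, liver, kidney and the blood-brain barrier, and its increase is one of the best known forms of multidrug resistance in cultured tumor cells. Transcription of ABCB1 is known from a downstream promoter, which most tissues use, and from an upstream promoter. In drug-selected cell lines, genes around ABCB1, such as ABCB4 and SRI, have often been found at raised levels together with it. DNA copy number was not analysed here.

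Along chromosome 7 (GRCh38 coordinates as deposited) the 10 genes span 1075 kb. DMTF1 (87152361-87196337, plus strand) is followed by TMEM243 (87196160-87220587, minus), CROT (87345681-87399795, plus) and ABCB4 (87401697-87480435, minus). ABCB1 (ENSG00000085563) lies at 87503633-87713323 on the minus strand. RUNDC3B (87627548-87832296, plus) starts inside ABCB1, and after it come SLC25A40 (87833568-87876357, minus), DBF4 (87876216-87909541, plus), ADAM22 (87934143-88202889, plus) and SRI (88205118-88226993, minus). Several of these genes share sequence on opposite strands, as the map of the gene spans shows. ABCB1 and RUNDC3B share 85776 bases of their spans and 0 bases of exons in GENCODE release 44. DMTF1 and TMEM243 share 178 exonic bases, and SLC25A40 and DBF4 share 145. The counting program and its use of strand are not given in the sources used here. Reads over the shared bases therefore cannot be assigned to 1 gene of a pair.

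**Figure D1:**
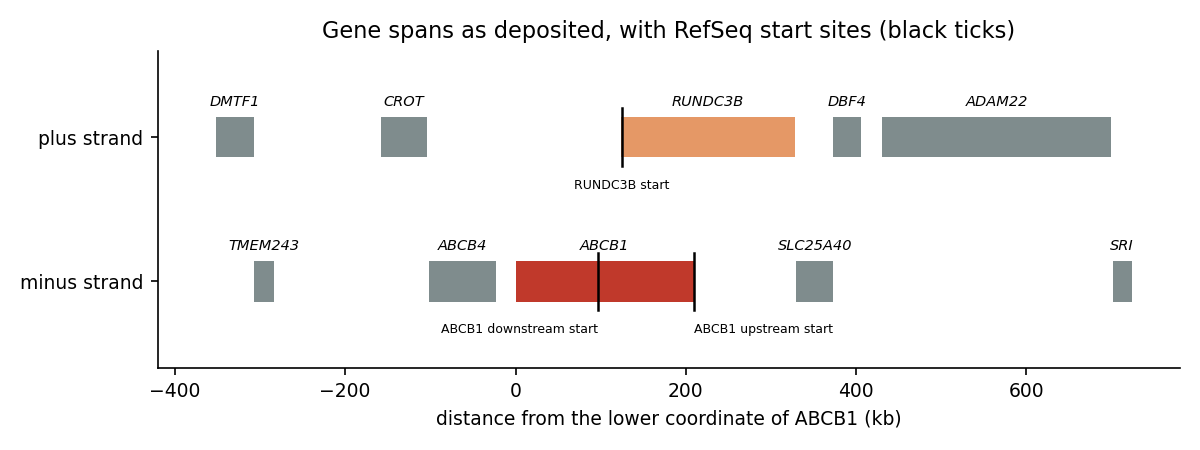
Spans of the 10 genes by strand, with the x axis giving the distance in kb from the lower coordinate of ABCB1, which is the 3′ end of this minus-strand gene, and black ticks marking the RefSeq start sites of ABCB1 and RUNDC3B. The RUNDC3B start lies between the 2 ABCB1 starts, 27514 bases from the downstream start and 84897 from the upstream start.

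RefSeq places 2 start sites for ABCB1 in GRCh38.p14, an upstream one at 87713295 and a downstream one at 87600884, which are 112411 bases apart. The RUNDC3B start at 87628398 lies between them and points the other way, so a transcript from the upstream ABCB1 start crosses it and a transcript from the downstream start does not overlap RUNDC3B. The deposited values are sums per gene and do not say which start was used. The sequences before these starts are shown because they are where transcription of the overlapping pair begins, and the last one because SLC25A40 and DBF4 start 132 bases apart in opposite directions. Capitals mark CCAAT (or ATTGG, the same letters on the other strand), the box bound by NF-Y, and GGGCGG (or CCGCCC), the GC box bound by SP1. The windows are chr7:87713324-87713545 (minus strand), chr7:87628148-87628397 (plus), chr7:87600946-87600975 (minus) and chr7:87876436-87876465 (plus), each printed 5′ to 3′ from RefSeq.
ABCB1 upstream start: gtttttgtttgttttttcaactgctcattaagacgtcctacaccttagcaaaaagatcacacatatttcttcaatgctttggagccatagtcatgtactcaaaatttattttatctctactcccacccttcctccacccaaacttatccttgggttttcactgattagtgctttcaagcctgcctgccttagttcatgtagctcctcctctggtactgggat
RUNDC3B: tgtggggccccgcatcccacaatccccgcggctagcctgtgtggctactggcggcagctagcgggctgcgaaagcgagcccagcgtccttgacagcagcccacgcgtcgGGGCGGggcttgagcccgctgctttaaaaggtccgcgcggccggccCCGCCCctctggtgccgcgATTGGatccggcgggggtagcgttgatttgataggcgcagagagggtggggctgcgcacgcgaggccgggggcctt
ABCB1 downstream start: gtggtgaggctgATTGGctgggcaggaaca
SLC25A40 and DBF4, DBF4 strand: tggcgtgagacgGGGCGGggcgcgcgtatc

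The CCAAT box (CCAAT), the box bound by SP1 (GGGCGG) and the core letters of the TATA box (TATAAA) were searched on both strands in the 250 bases before each RefSeq start. None of the 3 contains another, though the ends of CCAAT and the GC box can share letters, and 32.0%, 42.6% and 10.7% of 35116 RefSeq promoters hold them. RefSeq entries were found for 9 of the 10 genes (13 entries, ABCB4 without one). CCAAT was found in an entry of 6 genes, the GC box in 8 and the TATA letters in 1, SRI. The downstream ABCB1 window held CCAAT letters beginning 238 and 79 bases before the start and neither of the other motifs. The upstream ABCB1 window held none of the 3 and was the poorer in G and C, at 39.2% against 55.6%. Before the RUNDC3B start, where 70.8% of bases were G or C, the CCAAT letters stood 76 bases and the GC boxes 141 and 95 bases upstream. A match is a match of letters and was not tested as a binding site.

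Total counts on genes were 15707134 to 18052517 per library, so that 3 counts, used as the floor of detection, correspond to 0.170 to 0.188 CPM (counts relative to the TMM-scaled library total). This floor covers counting error alone. The filter on low counts left 15054 genes, 9 of the 10 among them. RC4-2B replicate 2 stood apart from its group, with a standard deviation of log2 differences of 0.57 and 0.49 to the other RC4-2B libraries against 0.20 between those and 0.11 to 0.18 within C4-2B. The difference between RC4-2B replicates 1 and 2 fell with transcript GC content (Spearman rho of -0.77 over 6413 genes, a description since genes are not replicates). All 10 genes have a GC content below the median of the tested genes, 34.3% to 47.6% in the longest transcript against 48.2%, so values are also given without this library and with a GC offset. The 7 prostate luminal markers KRT8, KRT18, EPCAM, CDH1, FOLH1, TMPRSS2 and STEAP2 were all expressed. Their summed level was 2807 to 2889 CPM in C4-2B and 2876 to 3788 CPM in RC4-2B. TMPRSS2 was lower in RC4-2B (log2 fold change -1.08, adjusted p = 0.019, edgeR). CDH1 went the other way, from 693 to 1022 CPM (0.56, adjusted p = 0.077, edgeR). It was called higher by DESeq2 (adjusted p = 0.026), with the GC offset (adjusted p = 0.034, edgeR) and without RC4-2B replicate 2 (adjusted p = 0.0044, edgeR). Of 12 markers of leukocytes, endothelium, fibroblasts and basal cells, 8 had at most 3 counts in every library. The summed level of all 12 lay between 26.7 and 42.3 CPM over all 6 libraries. The highest were COL1A1 (23.3 CPM in C4-2B, 28.7 in RC4-2B) and VWF (7.69 and 4.29 CPM). Neither was called by edgeR with all 6 libraries, the filter on low counts and no GC offset. VWF was called lower by DESeq2 (adjusted p = 0.016) and COL1A1 higher with the GC offset (adjusted p = 0.018, edgeR).

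ABCB1 was almost without reads in C4-2B and among the most abundant genes in RC4-2B. The C4-2B libraries held 0, 1 and 0 counts of it, against 10742, 15948 and 13179 in RC4-2B. Per length, the deposited values were 103.5, 146.5 and 120.6 FPKM in RC4-2B, ranks 318, 193 and 242 of 58735 genes in their libraries. The groups did not overlap, and replicate 2 was the highest of RC4-2B. The level in RC4-2B was 785 ± 119 CPM (SD, n = 3) and no C4-2B library exceeded 3 counts. With C4-2B set to a floor of 3 counts per library, the RC4-2B mean was at least 4532-fold higher (12.15 on the log2 scale). This bound was not itself tested. The quasi-likelihood test of edgeR gave an adjusted p = 4.20e-07 (over all genes, Benjamini-Hochberg) for the fitted log2 fold change of 14.85. That fitted value depends on the prior count. The exact two-sided permutation test over libraries gave p = 0.1, the smallest that 3 libraries against 3 allow. A higher share of cells with ABCB1 RNA and more RNA per cell cannot be told apart in bulk samples.

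Among 15054 tested genes, 1.08% were called higher in RC4-2B by edgeR at an adjusted p under 0.05. ABCB1 and RUNDC3B, 2 of the 9 tested genes of the region, were among them. None was called lower, against 0.903% of all genes by edgeR. At an unadjusted p under 0.05, 6 of the 9 were higher and 0 lower by edgeR, against 12.0% and 9.42% of all genes. By DESeq2, 5 of 10 were higher and 0 lower at an unadjusted p, and the share over all genes was not computed for it. All 3 RC4-2B libraries lay above all 3 C4-2B libraries for 7 of the 9, against 17.0% of all genes tested. Apart from ABCB1, 6 of 8 did so, and TMEM243 and CROT were the exceptions. The calls changed with the treatment of RC4-2B replicate 2 and of GC content. DBF4 and ADAM22 were also called, 4 genes in all, without RC4-2B replicate 2 (6.5% of all genes called higher), with the GC offset (4.36%) and with DESeq2 (3.28%).

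**Figure D2:**
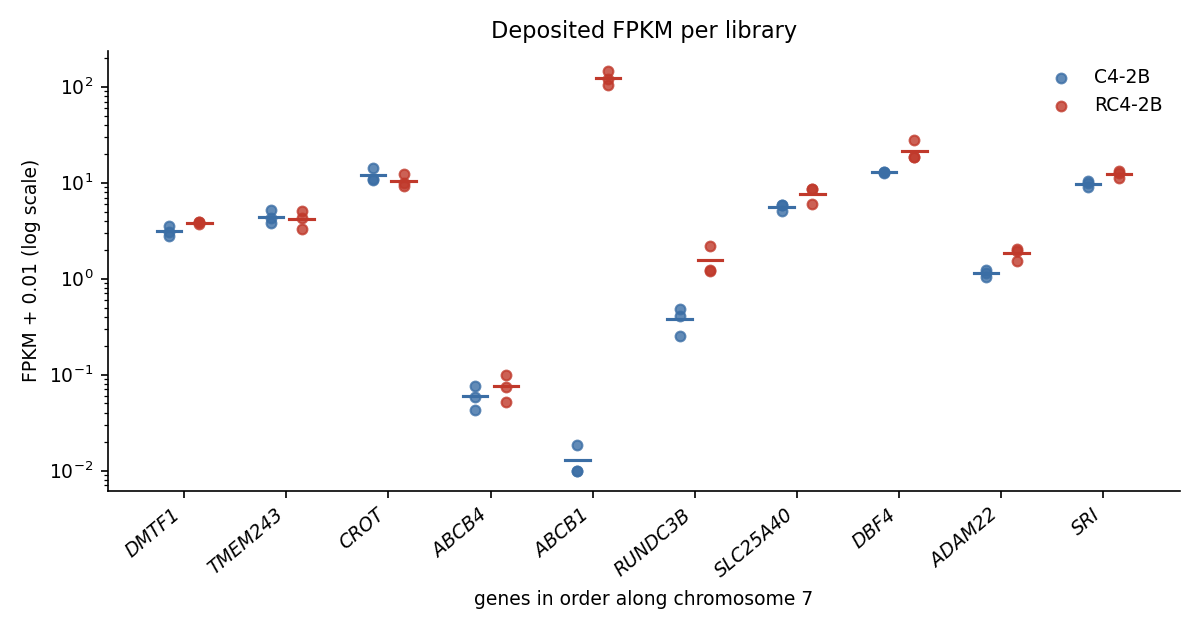
Deposited FPKM of the 10 genes in each library, on a log axis after adding 0.01, in order along chromosome 7, with blue points for the 3 C4-2B libraries, red points for the 3 RC4-2B libraries and bars for the mean. ABCB1 moves from the lowest of the 10 genes in C4-2B to the highest in RC4-2B, at 123.5 FPKM, while ABCB4 beside it stays under 0.1 FPKM in all libraries.

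ABCB4 is the closest relative of ABCB1 and encodes the phosphatidylcholine translocator of the bile canaliculus. It is the next gene in the direction of ABCB1 transcription. C4-2B replicates 1 to 3 had 7, 5 and 10 counts, against 9, 13 and 6 in RC4-2B. The ranges overlapped, and both groups lay close above the floor. It did not pass the filter on low counts. Without that filter its log2 fold change was 0.38 (95% interval -0.78 to 1.53, adjusted p = 0.74, edgeR), an interval that includes no change as well as changes of either sign. The ratio of ABCB4 to ABCB1 counts in RC4-2B was 0.0838%, 0.0815% and 0.0455%, and ABCB1 had 1889 times the mean FPKM of ABCB4.

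RUNDC3B encodes a RUN domain protein, a domain found in proteins that work with small GTPases. It showed the largest difference among the neighbours. C4-2B replicates 1 to 3 had 35, 44 and 22 counts, against 100, 194 and 109 in RC4-2B. In CPM these were 2.09, 2.49 and 1.25 against 6.25, 11.1 and 6.40, with no overlap and with replicate 2 above the other RC4-2B libraries. The mean rose from 1.94 ± 0.63 to 7.91 ± 2.73 CPM (SD, n = 3), 4.06-fold (log2 fold change 2.02, SE 0.33, 95% interval 1.26 to 2.78, adjusted p = 0.024, edgeR). Without RC4-2B replicate 2 the log2 fold change was 1.70 (adjusted p = 0.00068, edgeR), and with the GC offset it was 1.81 (adjusted p = 0.0036, edgeR). The call was lost without C4-2B replicate 1, 2 or 3 (adjusted p = 0.15, 0.082 and 0.11, edgeR) and without RC4-2B replicate 3 (adjusted p = 0.067, edgeR), with log2 fold changes of 1.78 to 2.24. It was also not past the threshold in limma on log2(FPKM + 0.1) (adjusted p = 0.094) or log2(FPKM + 1) (adjusted p = 0.087).

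RUNDC3B overlaps ABCB1 on the other strand, and the levels of both moved together between the groups. The ratio of RUNDC3B to ABCB1 counts in RC4-2B was 0.931%, 1.22% and 0.827%. It was highest in replicate 2, where both counts were also the highest. The annotated exons of ABCB1 and RUNDC3B share 0 bases, so mixing of their counts would concern ABCB1 reads outside its annotated exons. Whether counting was stranded is not given, and such reads over RUNDC3B cannot be told apart from reads of RUNDC3B itself. The RUNDC3B level in RC4-2B, 1.54 FPKM, was below that of the other genes of the region except ABCB4, with a range that overlapped that of ADAM22, and the ABCB1 level was 80.3 times as high.

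DBF4 and SLC25A40 start from the same short stretch of DNA in opposite directions. DBF4 is the regulatory subunit that activates the kinase CDC7 at replication origins. C4-2B replicates 1 to 3 had 1086, 1164 and 1164 counts, against 1505, 2400 and 1597 in RC4-2B. In CPM the C4-2B libraries lay within 64.8 to 66.3, and the RC4-2B libraries stood at 94.1, 136.8 and 93.8, all above them. The difference was 1.65-fold (log2 fold change 0.72, SE 0.16, 95% interval 0.35 to 1.09) and missed the threshold (adjusted p = 0.063, edgeR). It was called without RC4-2B replicate 2 (log2 fold change 0.52, adjusted p = 0.00096, edgeR) and with the GC offset (0.50, adjusted p = 0.012, edgeR), and at 0.44 with both (adjusted p = 0.0018, edgeR). Without RC4-2B replicate 1 it also passed (adjusted p = 0.049, edgeR).

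SLC25A40 encodes a carrier of the inner mitochondrial membrane that has been linked to mitochondrial glutathione. C4-2B replicates 1 to 3 had 562, 514 and 575 counts, against 544, 809 and 816 in RC4-2B. In CPM the lowest RC4-2B library, replicate 1 at 34.0, stood just above the highest C4-2B library at 33.5. The log2 fold change was 0.43 (95% interval 0.07 to 0.78, adjusted p = 0.18, edgeR), and no alternative called it. The ratio of DBF4 to SLC25A40 counts was 1.93, 2.27 and 2.02 in the C4-2B libraries against 2.77, 2.97 and 1.96 in RC4-2B. These ranges overlapped, with means of 2.07 ± 0.17 and 2.56 ± 0.53 (SD, n = 3). The exact two-sided permutation test gave p = 0.3, where 0.1 is the smallest possible, so a difference in the ratio was neither shown nor excluded.

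ADAM22 is a member of the ADAM family without protease activity and serves as a receptor for the secreted protein LGI1 at synapses. C4-2B replicates 1 to 3 had 233, 273 and 291 counts, against 327, 461 and 445 in RC4-2B. In CPM the C4-2B libraries lay between 13.9 and 16.6 and the RC4-2B libraries between 20.5 and 26.3. The difference was 1.59-fold (log2 fold change 0.67, SE 0.16, 95% interval 0.31 to 1.02) and missed the threshold (adjusted p = 0.070, edgeR). It was called without RC4-2B replicate 2 (log2 fold change 0.61, adjusted p = 0.0084, edgeR), with the GC offset (0.49, adjusted p = 0.036, edgeR) and without RC4-2B replicate 1 (adjusted p = 0.042, edgeR).

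SRI encodes sorcin, a small calcium-binding protein that regulates the ryanodine receptor. C4-2B replicates 1 to 3 had 830, 760 and 812 counts, against 836, 1054 and 997 in RC4-2B. In CPM the groups lay next to each other without overlap, at 43.0 to 49.5 and 52.3 to 60.1. The log2 fold change was 0.30 (95% interval 0.03 to 0.57, adjusted p = 0.20, edgeR), and 0.10 with the GC offset (adjusted p = 0.61, edgeR).

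On the other side of ABCB1 none of CROT, TMEM243 and DMTF1 was called, and their signs were mixed. CROT encodes carnitine O-octanoyltransferase, the peroxisomal enzyme that passes medium-chain acyl groups to carnitine. It stood at 59.7, 61.3 and 78.8 CPM in C4-2B against 55.2, 49.0 and 67.2 CPM in RC4-2B. The ranges overlapped (log2 fold change -0.22, 95% interval -0.59 to 0.15, adjusted p = 0.42, edgeR), and with the GC offset the value was -0.37 (adjusted p = 0.20, edgeR). TMEM243, a transmembrane protein, stood at 18.7, 14.0 and 15.4 CPM in C4-2B against 18.5, 11.4 and 15.3 CPM in RC4-2B. Its lowest value was RC4-2B replicate 2, and its log2 fold change was -0.09 (95% interval -0.56 to 0.38, adjusted p = 0.80, edgeR) and 0.07 without that library. DMTF1 encodes a Myb-like transcription factor that binds cyclin D. It stood at 29.2, 32.3 and 36.7 CPM in C4-2B against 40.4, 37.5 and 40.6 CPM in RC4-2B, which do not overlap (log2 fold change 0.27, 95% interval -0.02 to 0.56, adjusted p = 0.26, edgeR). With the GC offset the DMTF1 value was 0.10 (adjusted p = 0.68, edgeR).

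**Figure D3:**
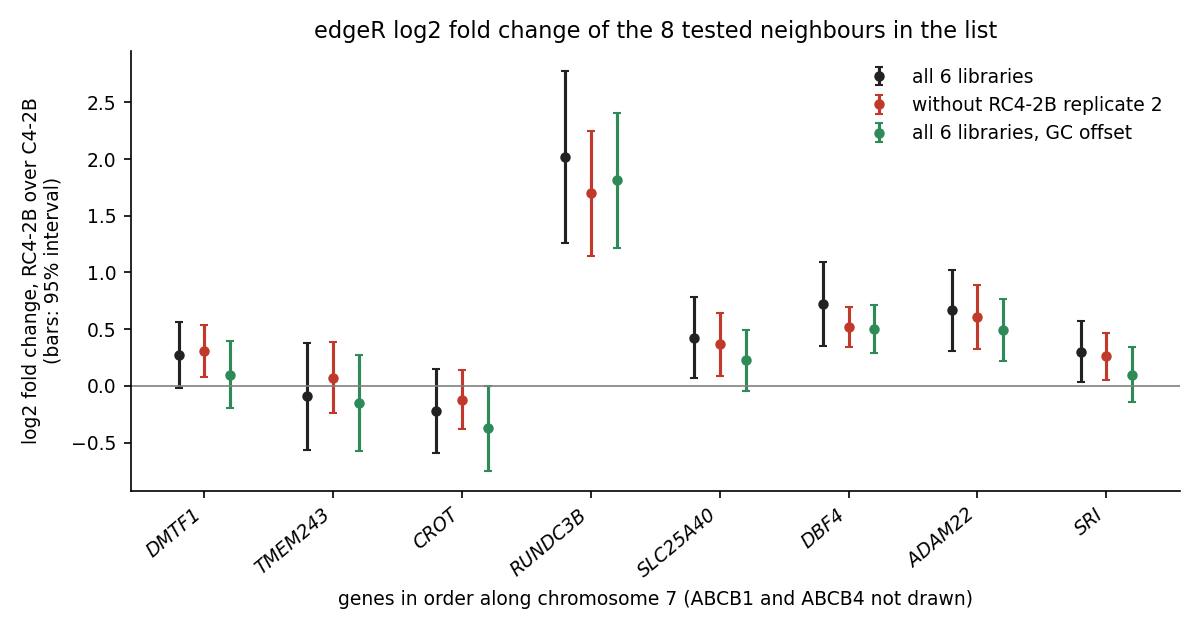
Log2 fold change of RC4-2B over C4-2B by edgeR for the 8 tested genes other than ABCB1, in order along chromosome 7, with points for the estimate and bars for the 95% interval, in black with all 6 libraries, in red without RC4-2B replicate 2 and in green with the GC offset. RUNDC3B stands above the rest in all 3 fits, and the estimates of DBF4 and ADAM22 stay above 0.4 while SRI and DMTF1 fall to 0.10 with the GC offset.

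Per length, the order of the 10 genes changed mainly through ABCB1. In C4-2B the mean FPKM ran from DBF4 (12.8) and CROT (11.99) through SRI (9.78), SLC25A40 (5.61), TMEM243 (4.40), DMTF1 (3.11), ADAM22 (1.13), RUNDC3B (0.369) and ABCB4 (0.0492) to ABCB1, listed at 0 in 2 libraries. Only DBF4 and CROT, and SLC25A40 and TMEM243, had overlapping ranges among neighbours in that order. In RC4-2B ABCB1 came first at 123.5 ± 21.7 FPKM (SD, n = 3), 5.72 times DBF4 (21.6), which came next. Then followed SRI (12.3), CROT (10.4), SLC25A40 (7.67), TMEM243 (4.18), DMTF1 (3.82), ADAM22 (1.82), RUNDC3B (1.54) and ABCB4 (0.0654). In this order the ranges of SRI and CROT, of TMEM243 and DMTF1, and of ADAM22 and RUNDC3B overlapped.

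The size of the difference was then set against position, with each gene placed by its lower coordinate. The split by side of ABCB1 was made after the values were seen and is a description. The 5 tested genes above ABCB1 in coordinate, RUNDC3B to SRI, all had log2 fold changes above 0, with a median of 0.67. The 3 tested genes of the list below it, CROT, TMEM243 and DMTF1, had a median of -0.09. Below it within 1 Mb, tested genes outside the list were KIAA1324L (0.55), AC005076.1 (0.57) and TP53TG1 (0.03), all above 0. The medians by side therefore describe the listed genes and not all tested genes of that side. With the GC offset the medians above and below ABCB1 were 0.49 and -0.15, and without RC4-2B replicate 2 they were 0.52 and 0.07. Without C4-2B replicate 1 the 3 values below were 0.19 (DMTF1), 0.03 (TMEM243) and -0.30 (CROT). The sign of the second median thus depended on the libraries used. Over all 8 tested genes of the list the median was 0.36, and 0.16 with the GC offset. It was 0.04 for 752 genes of chromosome 7 and 0.01 for all genes tested.

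Within 1 Mb of ABCB1 the table lists 27 other genes, of which 15 had at most 3 counts in every library and 11 were tested. The median log2 fold change of the 11 was 0.43, and 0.23 with the GC offset. Between 1 and 5 Mb away, the median of 17 tested genes was 0.14, and 0.01 with the GC offset. With all 6 libraries and no GC offset, edgeR called RUNDC3B alone among the 28 tested genes within 5 Mb. In 3 other fits genes were called in both directions. With the GC offset 5 were higher and 3 lower, against 4.36% and 3.25% of all genes. Without RC4-2B replicate 2, 6 were higher and 4 lower, against 6.5% and 6.02%. With DESeq2, 5 were higher and 1 lower, against 3.28% and 2.64% of the 15221 genes with an adjusted p. DESeq2 covered 58 genes of this window, but these include genes without an adjusted p, so 58 is not the matching base for those shares. The gene called lower in all 3 was the antisense RNA AC002456.1, named after its values were seen, with 15, 18 and 37 counts in the C4-2B libraries against 1, 0 and 5 in RC4-2B (log2 fold change -3.42, adjusted p = 0.063 with all 6 libraries, edgeR). Outside the list of 10, the tested genes within 1 Mb were KIAA1324L, TP53TG1 and AC005076.1. KIAA1324L, which encodes a transmembrane protein, stood at 30.1, 31.1 and 31.7 CPM in C4-2B against 41.5, 52.2 and 42.5 CPM in RC4-2B (log2 fold change 0.55, adjusted p = 0.071, edgeR). This gene, the farthest of the 11 on that side, passed the threshold without RC4-2B replicate 2 (0.44, adjusted p = 0.0073, edgeR) and with the GC offset (0.38, adjusted p = 0.026, edgeR). The noncoding RNA TP53TG1 (0.03, adjusted p = 0.92, edgeR) and the antisense RNA AC005076.1 (0.57, adjusted p = 0.23, edgeR) were not called.

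**Figure D4:**
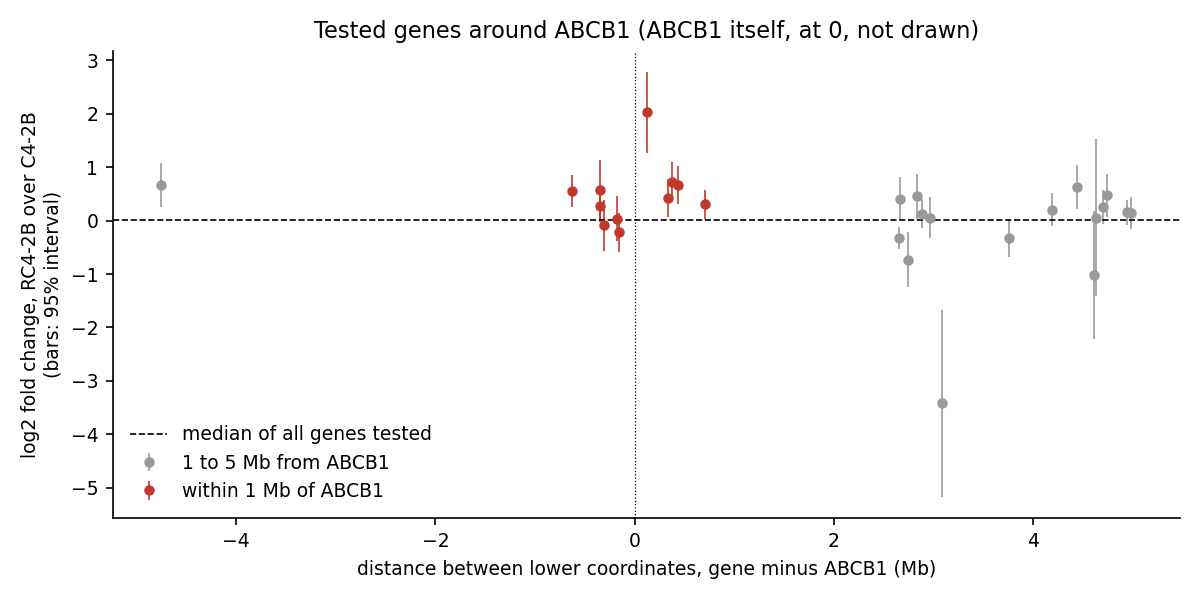
Log2 fold change of RC4-2B over C4-2B by edgeR against distance from ABCB1 in Mb (lower coordinate of the gene minus that of ABCB1) for the 28 tested genes within 5 Mb, with bars for the 95% interval, red points within 1 Mb, grey points beyond and a dashed line at the median of all genes tested. RUNDC3B is the highest point at 2.02, and the other red points lie between -0.22 and 0.72.

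The other members of the ABCB subfamily lie at other loci, apart from ABCB4, and none of those tested was called. Of 10 subfamily genes examined, 8 were tested, and ABCB1 was the 1 called higher. For the other 7 the log2 fold changes ranged from -0.47 to 0.67 with a median of -0.10. None was called by edgeR (0 higher and 1 lower at an unadjusted p under 0.05) or by DESeq2. Among all genes tested by edgeR, 1.08% were called higher and 0.903% lower (12.0% and 9.42% at an unadjusted p). With 7 genes, 0 calls is near these shares. ABCB8, a transporter of the mitochondrial inner membrane with the highest CPM after ABCB1, stood at 86.2 CPM in C4-2B against 80.2 CPM in RC4-2B (log2 fold change -0.10), with RC4-2B replicate 2 lowest at 51.9 CPM. Its direction turned to 0.13 without that library and to 0.15 with the GC offset, and it was not called in either fit. ABCB5 had at most 3 counts in every library.

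The genes of proteins known to act on the ABCB1 promoter were examined in the same fit. Of 31 listed, 29 were tested and 0 were called in either direction by edgeR, with 3 higher and 3 lower at an unadjusted p under 0.05. Of all genes tested, 1.08% were called higher and 0.903% lower, and 12.0% and 9.42% were so at an unadjusted p. DESeq2, which called 2.64% of all genes lower, called 1 of the list lower. It was WT1, a zinc finger repressor or activator (log2 fold change -0.70, adjusted p = 0.044, DESeq2). YBX1, CTNNB1 and DNMT1 had the highest CPM, an order that is not per length. YBX1, the Y-box binding protein, stood at 1196 CPM in C4-2B against 952 CPM in RC4-2B (log2 fold change -0.33, adjusted p = 0.18, edgeR). CTNNB1, which encodes beta-catenin, stood at 342 and 365 CPM (0.09), and DNMT1, the maintenance DNA methyltransferase, at 351 and 319 CPM (-0.14). NR1I2, the pregnane X receptor that induces ABCB1 in liver and gut, had 0 counts in all libraries, within the floor of 3 counts. Without RC4-2B replicate 2, where 6.5% of all genes were called higher, 1 of the listed genes was. It was NFYA, a subunit of the CCAAT-binding NF-Y (0.31, adjusted p = 0.037, edgeR). In that fit, where 6.02% of all genes were called lower, 3 were so, WT1 (-0.77, adjusted p = 0.012), CEBPB (-0.46, adjusted p = 0.0083) and the methyl-DNA binding protein MBD2 (-0.51, adjusted p = 0.0015, all edgeR).

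The pattern of ABCB1, at most 3 counts in each C4-2B library and at least 10 in each RC4-2B library, was shared by 4 other genes of the 58735. The most abundant was BOLA2B on chromosome 16, with 2, 0 and 0 counts in the C4-2B libraries against 15, 20 and 23 in RC4-2B. Its near-identical copy BOLA2 makes its counts uncertain. Next came ZG16, which encodes a secreted lectin (0, 0 and 0 against 14, 11 and 21 counts), and the pseudogene ALOX12P2 (0, 0 and 0 against 13, 13 and 18 counts). Per length, the mean of ABCB1 in RC4-2B was 161.7 times that of BOLA2B in FPKM.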

How the data were processed

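RNAseq libraries were made from C4-2B (3) and RC4-2B (3). Per the labels, reads were mapped by the authors with STAR on GRCh38. The authors deposited counts, whole read numbers for each gene that are not normalized. The deposited FPKM values are counts divided by the authors for gene length and library depth. Trimming, the counter, its use of strand and of reads with several hits, and the annotation release are not given in the sources used here. Counts were tested in R 4.3.3 with edgeR 4.0.16, using TMM scaling, filterByExpr with its minimum of 10 counts (15054 genes of 58735), glmQLFit and glmQLFTest on cell line alone, Benjamini-Hochberg adjustment over all genes tested and a threshold of 0.05. The fit was tested on simulated data. CPM is TMM-scaled. Levels of the 10 genes were compared with each other in FPKM, while list members were ranked by CPM, which is not per length. Depth was 15707134 to 18052517 counts, and changes of genes under 3 counts are not detectable.

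For the GC offset, each library's deviation of log2 CPM from the gene mean was fitted with a lowess curve of span 0.2 on GC content, taken from the longest transcript in GENCODE release 44, known for 99.6% of tested genes. The offset removes a GC trend between the groups as well as one between libraries. Promoters were taken from RefSeq (GRCh38.p14). The ends of 7 of the 10 genes in GENCODE release 44 differ from the deposited ones, by at most 616 bases. Other alternatives were DESeq2 1.42.0, the tool named in the methods, RLE and upper-quartile scaling, no filter, a mean of at least 10 counts, a prior count of 2, a block for the replicate number, leaving out single libraries, and limma 3.58.1 on log2 FPKM with a pseudocount of 1 or 0.1, over genes that reach an FPKM of 1 in 3 or more libraries. The GC offset without RC4-2B replicate 2 was added after the data were seen.

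The members and the gene lists were chosen with earlier results of these data known. Named genes were the 10 members, the tested genes within 1 Mb of ABCB1, list members past the threshold, the 3 most abundant genes of the ABCB subfamily and regulator lists, and the 3 genes most like ABCB1 in pattern. Some genes that this rule and the lists cover are not reported here. ABCB5, NR1I2, TMPRSS2, CDH1, COL1A1, VWF, AC002456.1 and the regulators called by alternatives were chosen after their values were seen. Libraries of the same line differed beyond sampling noise in each pair (chi-square of 3.39 to 65.5 per gene), and no library was a copy. The replicates are those the authors label as biological, and p-values measure the spread between these libraries.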

Additional observations from a re-analysis of the deposited data

How the results depend on the processing

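ABCB1 was called higher in every alternative run, and over the 6 fits that leave out 1 library its fitted log2 fold change, which depends on the prior count, was 14.39 to 16.7. The number of members called higher, 2 in the report, was 4 with DESeq2, with no filter, with the GC offset, with the GC offset and the replicate block, and with the GC offset without RC4-2B replicate 2. It was 1 in the 3 limma fits on FPKM, and 1 to 4 over the fits on 5 libraries (4 where RC4-2B replicate 1 or 2 was omitted, 1 where any other was). The additional members were DBF4 and ADAM22 in each case. The neighbours within 1 Mb called higher, 1 in the report, were 4 with DESeq2, no filter and the 3 fits with a GC offset, 0 in the 3 limma fits, and 0 to 4 when a library was left out. Windows of 0.5 and 5 Mb gave 1. ABCB1 regulators called higher were 0 to 1 when a library was left out, and those called lower 0 to 3. DESeq2 called 1 regulator lower (WT1), against 2.64% of all genes. No filter called 1 (CEBPB), and the GC offset without RC4-2B replicate 2 called 5 (YBX1, WT1, CEBPB, HDAC1 and MBD2). Shares of all genes called were computed only for the fits where they are given. Counts of members, neighbours and regulators from the other fits stand without such a share and cannot be set against it. The log2 fold change of TMEM243 turned to 0.032 without C4-2B replicate 1, to 0.074 without RC4-2B replicate 2 (range -0.26 to 0.074 over the fits on 5 libraries) and to 0.035 with the GC offset without RC4-2B replicate 2. The cause of these changes was not tested. ABCB4 had no value in fits whose filter removed it. At this depth, changes of ABCB4 and of the genes with at most 3 counts could not be resolved.

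Replicate numbers are shared between the lines, but the deviations of same-numbered libraries correlated at 0.13, 0.08 and -0.01, so the numbers were not taken to pair them. RC4-2B replicates 1 and 2 correlated best with their own number and replicate 3 with C4-2B replicate 1. With the replicate number as a block, 2 members were called, RUNDC3B at a log2 fold change of 2.02 (adjusted p = 0.023, edgeR) and ABCB1 at 14.86.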
